A study of Sus scrofa with 6 samples.

Results

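Hormone receptors in the longissimus dorsi muscle (LDM) and the psoas major muscle (PMM) of adult pigs were described from one-colour Agilent expression arrays. The receptors were 7 genes: the growth hormone receptor (GHR), the insulin receptor (INSR), the thyroid hormone receptors alpha (THRA) and beta (THRB), the oestrogen receptor alpha (ESR1), the glucocorticoid receptor (NR3C1) and the leptin receptor (LEPR). A probe was taken when it was no control and when its gene name was one of these symbols or its description held the symbol in round brackets. This gave 8 of the 43603 probes on the array, with 2 probes for GHR, 2 for THRA and 1 each for INSR, NR3C1, ESR1 and LEPR. No probe met the rule for THRB, and 1 probe annotated as this receptor under another name is described apart from the members. Of the 8 probes, 6 probes of 4 genes were bright enough to be compared between the muscles.

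The RNA came from untreated female Landrace pigs slaughtered at 210 days of age, and each muscle had 3 arrays. The pigs lived under shared housing and from weaning at 28 days were given a formula feed set to recommendations for their growth phases. They had water but no feed for the last 24 h, so every array stands for a fasted animal. LDM is a glycolytic muscle and PMM an oxidative one, and the study took both from the same 3 pigs, although no label ties a replicate number to a pig. Each sample is a piece of whole muscle, and the p-values measure the spread between these arrays.

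Hormone receptors fall into groups that work differently. GHR and LEPR belong to the cytokine receptors of the cell surface, which signal through the kinase JAK2 and STAT proteins, and INSR is a receptor tyrosine kinase that in muscle drives glucose uptake and glycogen synthesis. THRA, THRB, ESR1 and NR3C1 are nuclear receptors, which bind DNA and regulate transcription according to their ligand, and in muscle the thyroid hormone receptors act on contractile and metabolic genes while the glucocorticoid receptor acts on protein breakdown.

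Probe sequences of 60 bases are printed for INSR, which is the member with the largest difference between the muscles, for the THRA probe that the files assign to both forms of this receptor, and for ESR1, whose signal stayed near the background. The letters are as the files give them, in lower case throughout, and genome positions were not used here.
INSR, probe A_72_P305794: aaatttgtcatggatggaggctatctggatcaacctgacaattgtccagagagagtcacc
THRA, probe A_72_P088091: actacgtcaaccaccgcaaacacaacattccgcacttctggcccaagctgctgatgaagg
ESR1, probe A_72_P077606: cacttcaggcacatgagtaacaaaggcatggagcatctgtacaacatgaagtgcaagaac

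The scanner software marks each spot that is clearly brighter than its background as well above it, and a spot with this mark is called detected here. Detected spots made up 58.5% to 72.4% of an array, and saturated spots were absent. The deposited values are spot intensities in arbitrary units, and the 75th percentile of an array ranged from 595 to 883. A level below is log2 of the intensity minus log2 of this percentile, so 0 is the 75th percentile of the array, and a difference is PMM minus LDM on this log2 scale. Levels of different probes are not comparable, since probes differ in brightness. All 22 muscle fibre markers that could be compared were detected on all 6 arrays, with a summed level of 8372 to 13412 times the 75th percentile in LDM and 10183 to 16236 times in PMM. The arrays therefore carried muscle RNA, although the label on extraction speaks of adipose tissue. Equal replicate numbers went with equal scan days in both muscles, and the number accounted for more of the variation than the muscle: over all compared probes the median share was 74.2% for the number and 6.54% for the muscle.

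GHR, INSR, NR3C1 and THRA were detected on 3 of 3 arrays of LDM and 3 of 3 of PMM, whereas ESR1 and LEPR were not well above background on any of the 3 arrays of either muscle. None of the 6 compared receptor probes differed between LDM and PMM at an adjusted p of 0.05 (limma, Benjamini-Hochberg over 25835 probes), with or without the replicate number as a block. Over all probes the calls were also few, 8 (0.031%) without the block and 17 (0.0658%) with it. An unadjusted p under 0.05 without the block was reached by 0 of the 6 receptor probes, beside 2.63% of all probes. INSR had the largest difference, 1.63-fold higher in LDM, and it alone among the 6 probes had the same direction in all same-number pairs. The other 5 probes, of GHR, NR3C1 and THRA, had differences between -0.18 and 0.18, and the muscles overlapped for each of them. The median difference of the 6 probes was -0.079 beside -0.041 over all compared probes, with 3 probes higher and 3 lower in PMM, and 55.8% of all probes were lower in PMM.

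**Figure D1:**
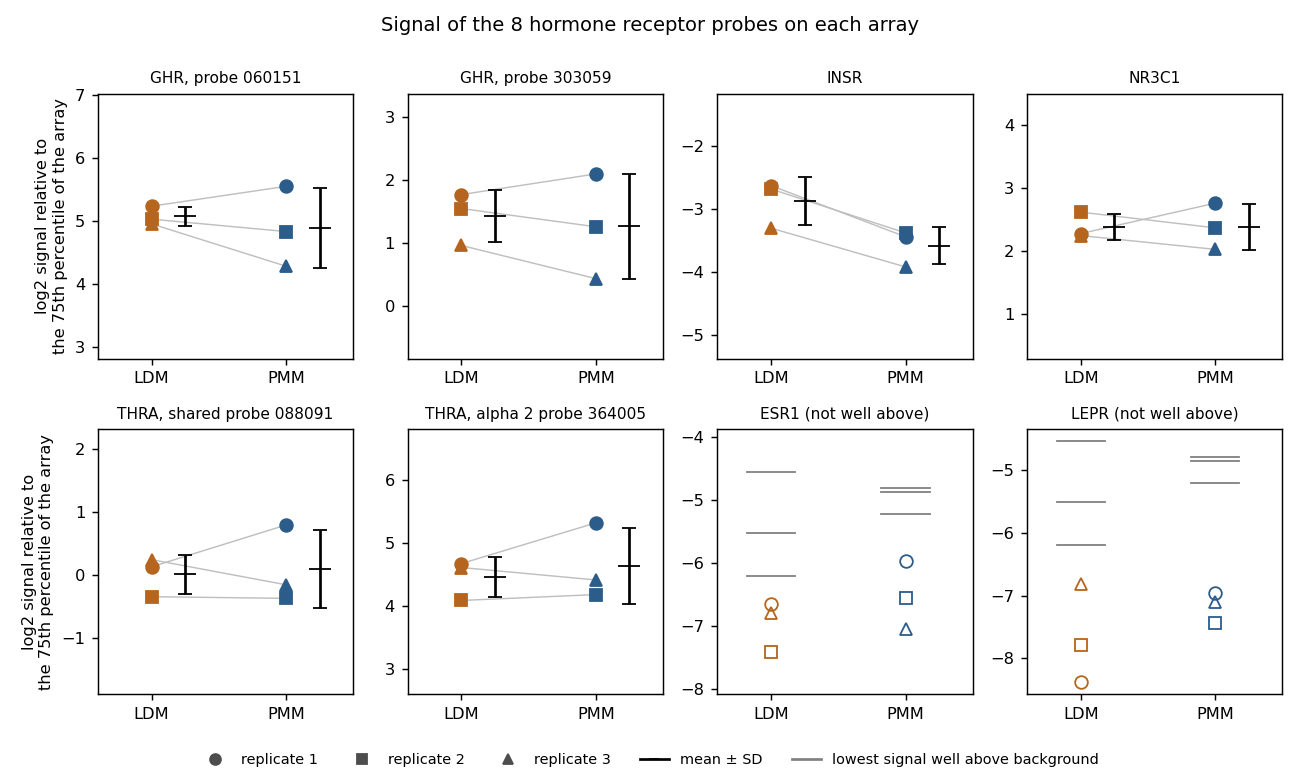
The log2 signal relative to the 75th percentile of the array is plotted for the 8 receptor probes on the 3 LDM and the 3 PMM arrays, each panel spanning the same range of log2 units, with lines joining equal replicate numbers, black bars for the mean ± SD, and grey bars in the ESR1 and LEPR panels for the lowest detected signal of each array. INSR was lower in PMM along all 3 lines, the other compared probes overlapped between the muscles, and ESR1 and LEPR lay below the grey bar of their own array on all 6 arrays.

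INSR, the receptor through which insulin acts on muscle fibres, was represented by 1 probe. For replicates 1, 2 and 3 of LDM the intensity was 109.6, 137 and 66.5 units. For those of PMM it was 54.7, 76.1 and 45.1 units in the same order. After normalization the levels were -2.63, -2.69 and -3.31 in LDM and -3.44, -3.38 and -3.92 in PMM. The 3 LDM arrays were the higher ones and the muscles did not overlap, although the lowest LDM array lay close to the highest PMM arrays. A separation in this direction was seen for 2.87% of the 25725 probes with a value on every array, and one in either direction for 5.94%. LDM had a mean of -2.87 ± 0.38 (SD, n = 3) against -3.58 ± 0.30 (SD, n = 3) for PMM, a difference of -0.71 (95% CI -1.47 to 0.05) or 1.63-fold higher in LDM (95% CI 0.967 to 2.76). The exact permutation test over the 6 arrays gave a two-sided p of 0.1, the smallest that 3 against 3 arrays allow, and limma gave an adjusted p of 1.0.

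Within the same-number pairs, INSR was 1.76-fold, 1.62-fold and 1.53-fold higher in LDM for replicates 1, 2 and 3, so the 3 pairs differed little from each other. Of all probes, 19.4% were lower in PMM in all 3 pairs. With the replicate number as a block the 95% CI narrowed to -1.12 to -0.30, with an unadjusted p of 0.0060 and an adjusted p of 0.25 (limma). An unadjusted p under 0.05 with the block was reached by 1 of the 6 receptor probes, INSR, beside 11.1% of all probes. The exact sign flip of the 3 pairs gave p = 0.25, the smallest that this number of pairs allows. The muscle accounted for 62.2% of the variation of INSR over the 6 arrays and the replicate number for 37.0%.

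The INSR probe was dim, and the size of its difference depended on how the signal was corrected. The mean spot signal before any correction was 154, 224 and 134 units on the LDM arrays and 112, 168 and 112 units on the PMM arrays, which was higher in LDM in each same-number pair. The scanner software subtracted a fitted surface of 55.0, 100.3 and 69.9 units on the LDM arrays and of 59.0, 97.1 and 70.9 units on the PMM arrays. The median background measured beside the spots was lower, between 30.0 and 36.5 units. When this local background was subtracted from the mean spot signal, the difference of INSR was -0.38. This left out both the surface and the multiplicative trend that the scanner software divides out. When 50 units were added to the signal as the scanner software gave it, the difference was -0.39. The normexp model was also given the mean spot signal and the local background. It takes the local background off and then fits signal and remaining background together. With normexp the difference was 0.10 with an offset of 50 units and 0.11 without an offset. The median of all probes moved from -0.041 to 0.12 and 0.13. Relative to the median of all probes, INSR then lay at -0.018 with the offset, in place of -0.67. These alternatives took the 75th percentile over averaged probes, a step that alone left INSR at -0.70. The 1.63-fold difference is therefore that of the signals as the scanner software corrected them.

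Markers of other cell types differed in both directions. Of the 10 adipocyte markers detected on all 6 arrays, 7 were lower and 3 higher in PMM, with a median difference of -0.37. CIDEC, a lipid droplet protein, had a difference of -0.86. By contrast, LPL, which releases fatty acids from blood lipids, had 1.12 and PNPLA2, a triglyceride lipase, had 0.80. For both LPL and PNPLA2 all PMM arrays lay above all LDM arrays, and which cells of the muscle carried these transcripts was not tested. The summed level of the 12 compared adipocyte markers was 218 to 373 times the 75th percentile in LDM and 395 to 408 times in PMM. This sum mainly follows the brightest probes, FABP4 with a mean level of 6.95 in LDM and 7.05 in PMM and PNPLA2 with 6.52 and 7.32. It is therefore no measure of the adipocyte markers as a set. All 5 fibroblast markers were lower in PMM, with a median difference of -0.44 and a summed level of 101 to 226 in LDM and 73.7 to 156 in PMM. All 6 endothelial markers detected on every array were higher in PMM, with a median difference of 0.40. The same held for all 6 immune and blood markers detected on every array, with a median difference of 0.12. These counts stand beside 55.8% of all probes lower in PMM. Separate muscles, as for LPL and PNPLA2, were seen in either direction for 5.94% of the probes with a value on every array. None of these markers passed the test, and their part in the INSR difference was not tested. In RNA of whole muscle, fewer cells of a type and less RNA per cell cannot be told apart.

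**Figure D2:**
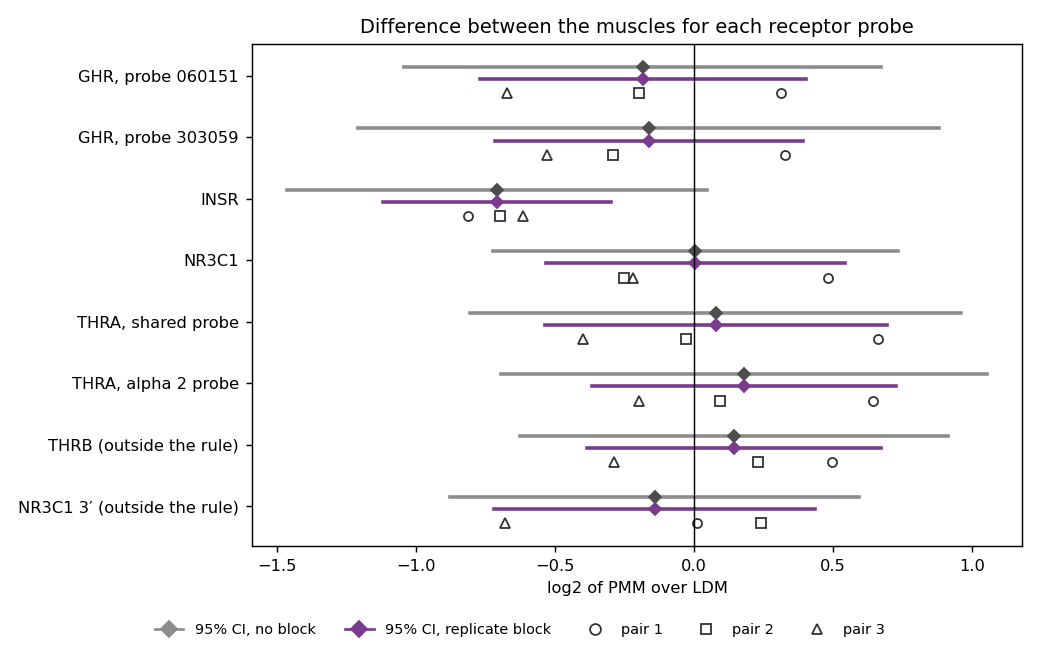
The difference between the muscles, log2 of PMM over LDM, is plotted for the 6 compared receptor probes and the 2 probes outside the rule, with the mean and its 95% CI without a block (grey) and with the replicate number as a block (purple) and, beneath, the 3 same-number pairs as open symbols. The INSR pairs lay between -0.81 and -0.62 and its interval with the block stayed below 0, whereas every other interval crossed 0.

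GHR, the receptor of growth hormone, was measured by 2 probes, 1 designed on the RefSeq transcript and 1 on a complementary DNA clone from liver. The clone-derived probe, A_72_P060151, was at 5.23, 5.03 and 4.95 on the LDM arrays and at 5.55, 4.83 and 4.28 on the PMM arrays of replicates 1, 2 and 3. The LDM arrays lay within the range of the PMM arrays, which held both the highest and the lowest value. The mean of LDM was 5.07 ± 0.15 (SD, n = 3) and that of PMM 4.88 ± 0.64 (SD, n = 3), a difference of -0.18 (95% CI -1.04 to 0.67, exact permutation p = 0.7). The replicate block gave a 95% CI of -0.77 to 0.40. The same-number pairs differed by 0.32, -0.20 and -0.67, so PMM was higher in the first pair and lower in the others.

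The RefSeq probe of GHR, A_72_P303059, was at 1.76, 1.54 and 0.95 in LDM and at 2.09, 1.25 and 0.43 in PMM. Its difference was -0.16 (95% CI -1.21 to 0.88, or -0.72 to 0.39 with the block, exact permutation p = 0.9). The pairs differed by 0.33, -0.29 and -0.53. Both GHR probes thus gave the same order of pairs, and over the 6 arrays their levels had a Pearson r of 0.95. The 6 points share scan days in pairs, and the replicate number accounted for 67.4% of the variation of the clone-derived probe and for 86.8% of that of the RefSeq probe. In both muscles replicate 1 was the highest and replicate 3 the lowest for both probes.

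NR3C1, the receptor for cortisol, was at 2.28, 2.62 and 2.24 on the LDM arrays and at 2.76, 2.37 and 2.03 on the PMM arrays. The mean was 2.38 in both muscles, with an SD of 0.21 in LDM and 0.37 in PMM (n = 3 each). The difference was 0.0047 (95% CI -0.72 to 0.73, exact permutation p = 1.0), an interval that still covers changes of up to 1.66-fold in either direction. With the replicate block the interval was -0.53 to 0.54. PMM was higher by 0.48 in the first pair and lower in the others, with differences of -0.25 and -0.22. A second probe, A_72_P175936, is described in the files as lying toward the 3′ end of the glucocorticoid receptor, but without the symbol, so it was no member. It was detected on every array, with a difference of -0.14 (95% CI -0.88 to 0.59, exact permutation p = 0.8).

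THRA was measured by 2 probes. The files list A_72_P088091, whose sequence is printed above, with the transcript of THRA and with that of the alpha 2 form. A_72_P364005 is listed with the alpha 2 form alone, a splice form known for not binding the hormone. The shared probe was at 0.13, -0.34 and 0.25 in LDM and at 0.80, -0.37 and -0.15 in PMM, a difference of 0.079 (95% CI -0.80 to 0.96, exact permutation p = 0.9). The alpha 2 probe was at 4.67, 4.09 and 4.61 in LDM and at 5.32, 4.18 and 4.41 in PMM, a difference of 0.18 (95% CI -0.69 to 1.06, exact permutation p = 0.8). The replicate block gave a 95% CI of -0.54 to 0.70 for the shared probe and of -0.37 to 0.73 for the alpha 2 probe. For both probes PMM replicate 1 was the highest array, and the remaining PMM arrays lay among the LDM arrays or within 0.03 of them. The shared probe was 1.58-fold and the alpha 2 probe 1.56-fold higher in PMM within the first pair, against 1.32-fold and 1.15-fold higher in LDM within the third. Their levels had a Pearson r of 0.98 over the 6 arrays, which share scan days in pairs.

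THRB, the second thyroid hormone receptor, had no probe by the rule. The probe A_72_P305869 carries an older name of this gene, and its accession belongs to THRB in the RefSeq table. It was detected on every array, with intensities of 63.2, 60.6 and 60.7 units in LDM and of 78.1, 63.9 and 51.6 units in PMM. The LDM intensities lay within the range of the PMM intensities, the normalized levels overlapped as well, and the difference of the levels was 0.15 (95% CI -0.62 to 0.92, exact permutation p = 0.8). With the replicate block this interval was -0.38 to 0.68. Over the 6 arrays the levels of the THRB probe had a Pearson r of 0.95 with the shared THRA probe and of 0.97 with the alpha 2 probe, and of -0.13 with INSR. The THRB probe was dim, as was that of INSR, and whether transcripts of THRA add to its signal was not tested.

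ESR1, the classical oestrogen receptor, was measured but was nowhere well above background. Its intensity was 6.75, 5.23 and 5.93 units in LDM and 9.52, 8.44 and 5.17 units in PMM. These values were 21.0% to 73.3% of the lowest detected signal of the same array, which ranged from 9.21 to 28.2 units. LEPR, the receptor of leptin, had intensities of 2.04, 4.0 and 5.85 units in LDM and of 4.76, 4.59 and 4.97 units in PMM. These were 20.7% to 22.3% of that lowest signal, and on all 6 arrays the scanner software had put a substitute value in place of the measured one. For ESR1 it had done so on 2 arrays. No difference is given for either receptor, since both muscles hold only an upper bound.

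**Figure D3:**
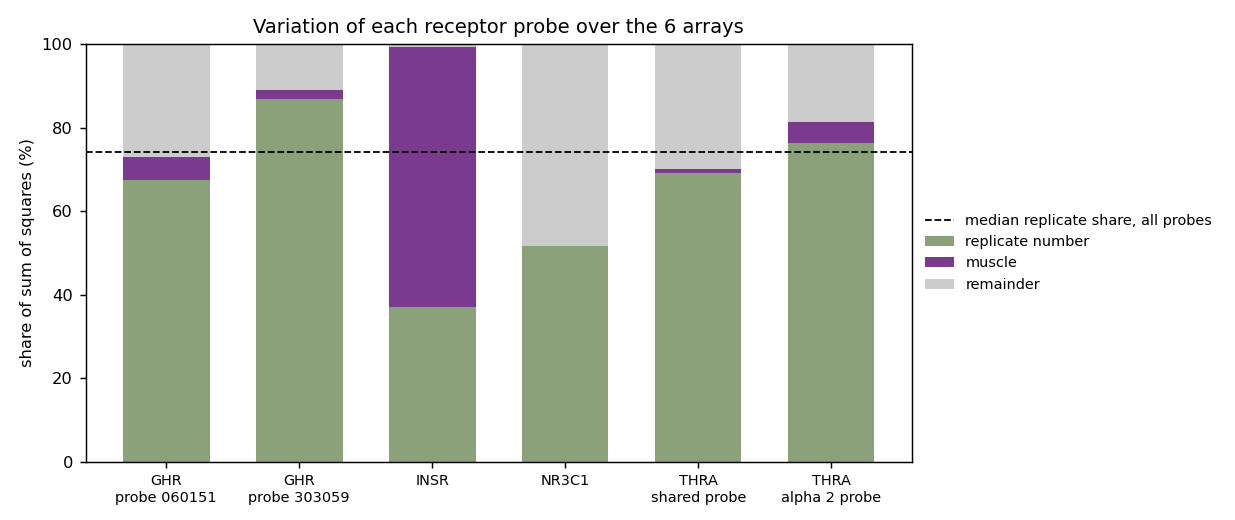
The share of the sum of squares over the 6 arrays, in percent, is plotted for each compared receptor probe as stacked bars for replicate number, muscle and the remainder, with a dashed line at 74.2%, the median share of the replicate number over all probes. The replicate number held 51.6% to 86.8% of the variation of GHR, NR3C1 and THRA and 37.0% of that of INSR, for which the muscle held 62.2%.

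The pairs did not move alike for most receptors. In the first pair PMM was higher for 5 of the 6 probes, all except INSR. GHR and THRA both entered this count with more than 1 probe. This was the pair whose LDM and PMM arrays lay on different slides. In the second pair PMM was higher for 1 of 6, the alpha 2 probe of THRA, and in the third pair for 0 of 6. In both of these pairs the muscles shared a slide. The share of all probes higher in PMM within each pair is not given here, so these counts cannot be read as a trait of the receptors. The part of the slide in them was not tested. Of the 6 probes, 1 kept 1 direction in all 3 pairs, beside 35.8% of all probes. The muscle held at most 5.64% of the variation of the probes other than INSR, which is near the median of all probes. For each member, the genes with the most similar levels over the 6 arrays were sought among 2709 named genes that were detected on every array. For GHR these were ABCD4 (r = 0.997) and DOLK (r = 0.996), for INSR PTGR1 (r = 0.984) and MSS51 (r = 0.978), for NR3C1 ART3 (r = 0.982) and RAD23B (r = 0.978), and for THRA TBRG4 (r = 0.990) and SLC7A1 (r = 0.989). These are the highest and second highest of 2709 values for each receptor, over 6 points that share scan days in pairs.

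Genes that act with these receptors were summarised in 7 lists, with the brightest probe standing for a gene. The lists were covered in part. A named probe was found for 11 of 17 growth hormone genes, 14 of 35 insulin genes and 10 of 21 thyroid hormone genes. It was found for 4 of 14 oestrogen, 14 of 26 glucocorticoid and 8 of 15 leptin genes. Counts of direction below stand beside 55.8% of all probes lower in PMM. In no list did a gene pass the test in either direction, with or without the block, beside the 0.031% and 0.0658% of all probes. The genes named from each list were picked for the largest differences. Over all probes with a value on every array, the muscles did not overlap for 5.94%, and 35.8% kept 1 direction in all 3 pairs. In the growth hormone list 10 genes were compared, 6 higher and 4 lower in PMM, with a median difference of 0.11. STAT5A, a transcription factor downstream of GHR, had a difference of -0.60 and was lower in PMM in 3 of 3 pairs. IGF1, the growth factor that growth hormone induces, had a difference of 0.40 with its brightest probe and of -0.50 with another, and SOCS2, an inhibitor of GHR signalling, had 0.34 and -0.0045 with its 2 probes. When each array was left out in turn, STAT5A ranged from -0.90 to -0.35, the brightest IGF1 probe from 0.086 (without LDM replicate 1) to 0.58 and the brighter SOCS2 probe from -0.0022 (without PMM replicate 3) to 0.76.

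In the insulin list 10 of 12 genes were lower in PMM, with a median difference of -0.12. GYS1, the muscle glycogen synthase, was at 0.38 and RPS6KB1, a kinase downstream of mTOR, at -0.33. Without PMM replicate 1 GYS1 was at -0.099, and without LDM replicate 1 RPS6KB1 was at -0.11. The leptin list held 8 compared genes, 4 in each direction, with a median of -0.044. In this list CPT1B, which carries fatty acids into mitochondria, was at 3.99, 3.20 and 3.30 in LDM and at 5.46, 4.0 and 4.46 in PMM. Its PMM arrays all lay above its LDM arrays, and its difference was 1.15 (SE 0.44, limma adjusted p = 1.0, and 0.20 with the block), with 1.13 and 1.07 for its other 2 probes and 0.74 for the brightest without PMM replicate 1. PRKAA2, a catalytic subunit of the AMP-activated kinase, was at -0.58 and JAK2, the kinase bound to GHR and LEPR, at 0.26. JAK2 was at -0.12 without PMM replicate 1, and PRKAA2 at -0.30 without PMM replicate 3.

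The thyroid hormone list had 8 compared genes, 5 higher and 3 lower in PMM, with a median of 0.12. DIO2, the enzyme that activates thyroid hormone inside cells, was at -3.84, -3.18 and -3.57 in LDM and at -2.52, -2.18 and -3.10 in PMM. The muscles did not overlap and PMM was higher in 3 of 3 pairs, with a difference of 0.93 (SE 0.35, limma adjusted p = 1.0, and 0.25 with the block). ATP2A2, the calcium pump of slow fibres and a known thyroid hormone target, was at 6.67, 6.36 and 5.67 in LDM and at 8.21, 7.16 and 6.96 in PMM. It too did not overlap, with a difference of 1.21 (SE 0.43, limma adjusted p = 1.0, and 0.20 with the block), and its other probes gave 1.22 and 0.39. The fit on slides that held both muscles uses replicates 2 and 3 only. There ATP2A2 had a difference of 1.04 and an adjusted p of 0.045 (limma). That fit called 2.05% of all probes and 0 of the 6 receptor probes. The replicate block fits on the other pairs did not call ATP2A2. It was at 1.42 without replicate 2 (limma adjusted p = 0.47) and at 1.17 without replicate 3 (limma adjusted p = 0.35).

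In the glucocorticoid list 5 of 14 genes were higher and 9 lower in PMM, with a median of -0.14. MSTN, the growth inhibitor myostatin, was at 1.24, 0.94 and 1.08 in LDM and at 0.56, 0.80 and -0.46 in PMM, a difference of -0.79 (SE 0.38, limma adjusted p = 1.0). Leaving out PMM replicate 3 brought this difference to -0.41. DDIT4, an inhibitor of mTOR signalling that glucocorticoids induce, had a difference of -0.60 and, like MSTN, did not overlap between the muscles, while HSD11B1, the enzyme that regenerates cortisol, had a difference of -0.49 with overlap. HSD11B1 ranged from -0.82 to -0.13 when each array was left out, the latter without PMM replicate 1. The oestrogen list had 2 compared genes, CYP19A1, the aromatase, at 0.24 and HSD17B4, a peroxisomal enzyme, at 0.19. CYP19A1 was at -0.055 without LDM replicate 1, and HSD17B4 at -0.029 without PMM replicate 1.

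Among 46 other hormone receptors, 32 had a probe and 19 could be compared, 6 higher and 13 lower in PMM, with a median of -0.084. RXRG, a nuclear receptor that pairs with the thyroid hormone receptors, had a difference of -0.72 with its brightest probe and of -1.07 with the other, OXTR, the oxytocin receptor, had -0.52 and ACVR2B, a receptor that myostatin binds, had -0.38, and each was lower in PMM in 3 of 3 pairs. Leaving out LDM replicate 1 brought the brightest RXRG probe to -0.28. The 13 receptors with a probe that could not be compared included PGR, ESR2, PRLR, MC4R and FSHR, which were detected on 0 of 6 arrays.

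**Figure D4:**
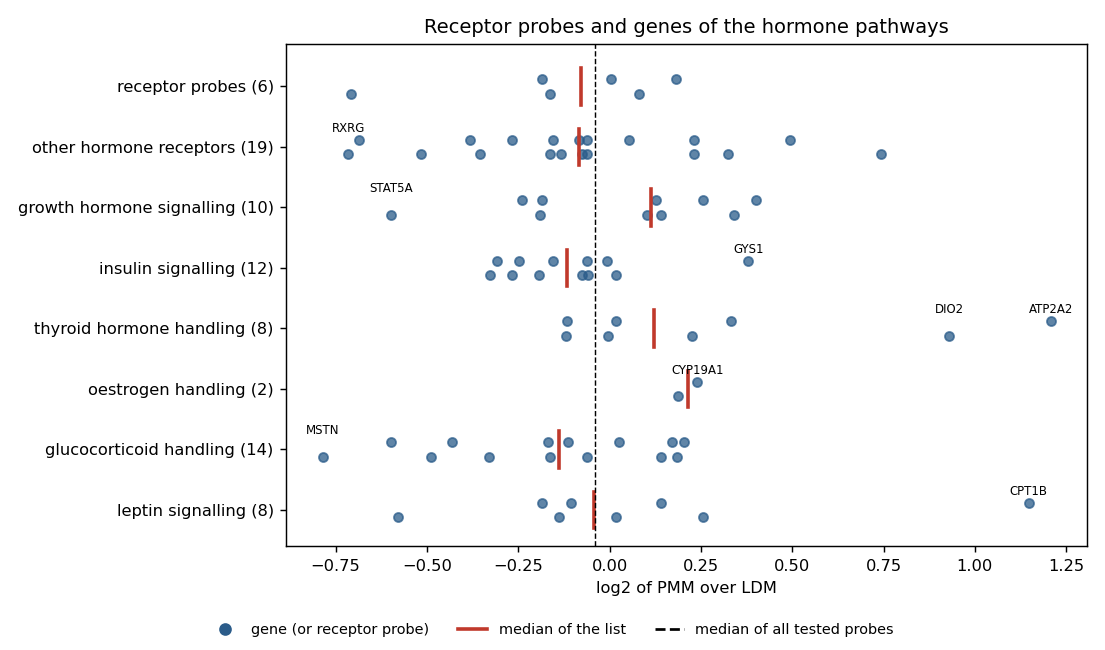
The difference between the muscles, log2 of PMM over LDM, is plotted for the 6 compared receptor probes and for the compared genes of the 7 lists, with the number compared in brackets, the median of each row as a red bar and the median of all compared probes as a dashed line at -0.041. The medians of the rows lay between -0.14 and 0.21, and ATP2A2, CPT1B and DIO2 lay farthest toward PMM.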

How the data were processed

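The arrays measured Cy3-labelled total RNA of LDM and PMM, 3 arrays per muscle, and groups were taken from the sample labels. The authors deposited spot intensity values made with Agilent Feature Extraction 10.5.1.1. Per the file headers and columns, this program subtracted a fitted background surface from the intensity, divided out a multiplicative trend and put substitute values in place of signals not above the background. The intensities were not normalized between arrays. The deposited value table of the series held the same linear intensities within 0.005 units.

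Control spots and outlier spots (6 to 161 per array) were left out, and repeated spots were averaged on the log2 scale. Then log2 of the 75th percentile of the array was subtracted, taken over all spots other than controls with outlier spots included. Of the 43603 probes, 25835 carried the mark of being well above background on each of the 3 arrays of LDM or of PMM, with at least 2 values per muscle, and 5071 had a gene name, from the RefSeq table of Sscrofa11.1 (names only) or the files. PMM was compared with LDM with lmFit and eBayes of limma 3.58.1 (R 4.3.3; two-sided, Benjamini-Hochberg over all compared probes, threshold 0.05). For receptor probes, the arrays were permuted exactly and the signs of pairs flipped exactly. Intervals are 95%. The script was tested on simulated data. The number of arrays limits the precision.

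Deviations from the muscle means correlated at 0.62, 0.70 and 0.56 between arrays of the same replicate number and from -0.54 to -0.01 between different numbers. The deviations of a probe cancel out within each muscle, so the negative values follow in part from the positive ones. The study took both muscles from the same pigs, so equal numbers were treated as pairs, with scan day and number not told apart. The genes named were the members, in each list (markers included) the genes called and up to 3 with the largest absolute difference among those with that mark on all 6 arrays, and for each member the 2 most similar genes; some genes that this rule names are not reported here. The members and lists were chosen with earlier results of these data known. The alternatives were other normalizations, background corrections and filters, outlier spots kept, the value table, the replicate number or the slide as a block, 1 probe per gene and leaving out each array.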

Additional observations from a re-analysis of the deposited data

How the results depend on the processing

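Of the receptor probes, 0 were called under all 25 alternatives, of which 8 were chosen after seeing the data, and the lowest adjusted p of INSR over them was 0.24 (limma). The count over all probes, 8, was fragile. It was 0 when the 75th percentile came from probes detected on every array, without a filter, with only probes detected on all 6 arrays, with outlier spots kept and with 1 probe per gene, and 1 with normexp. The replicate block gave 17, and the slide as a block, which uses replicates 2 and 3 only, gave 529. Leaving out each array gave 0 to 1. Among the added alternatives, the count was 5 with the local background subtracted, 0 with normexp without an offset, 2 with an offset of 50 added to the processed signal, 0 with the percentile over averaged probes, 0 with the replicate block on quantile normalized values, and 529, 1 and 0 with the replicate block without replicates 1, 2 and 3. The replicate block changed no call of a receptor.

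INSR kept its direction except with normexp (0.10, or 0.11 without an offset), and leaving out each array gave -0.92 to -0.54. The small differences of the other probes changed sign. The clone-derived GHR probe was at 0.12 without PMM replicate 3 and at 0.059 with the block without replicate 3 (leave-one-out range -0.52 to 0.12). The RefSeq GHR probe was at 0.0088 without LDM replicate 1, 0.25 without PMM replicate 3 and 0.019 with the block without replicate 3 (range -0.58 to 0.25). NR3C1 was at -0.0525 with median centring, -0.20 with normexp, -0.21 with normexp without an offset, -0.050 with the local background subtracted, -0.23 with the slide as a block and with the block without replicate 1, and -0.047, -0.063 and -0.18 when LDM replicate 1, LDM replicate 3 or PMM replicate 1 was left out (range -0.18 to 0.18). The shared THRA probe was at -0.0135 with normexp, -0.022 with normexp without an offset, -0.21 with the slide as a block and with the block without replicate 1, -0.098 or -0.27 when LDM replicate 2 or PMM replicate 1 was left out (range -0.27 to 0.31). The alpha 2 probe was at -0.060 with normexp, -0.067 with normexp without an offset, -0.052 with the slide as a block and with the block without replicate 1, -0.0041 or -0.16 when LDM replicate 2 or PMM replicate 1 was left out (range -0.16 to 0.41). Why these values moved was not tested. Of 119 list medians, 114 moved by less than the spread between replicates. The exceptions were the other hormone receptors, at 0.056 with normexp and from -0.28 to 0.038 when arrays were left out, and the leptin list, from -0.13 to 0.10 when arrays were left out. Normexp raised the median of all probes by 0.16. ESR1 and LEPR are limited by signal over background.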
